A study of Arabidopsis thaliana with 18 samples.

Results

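TAS1a (AT2G27400) is a non-coding gene of Arabidopsis thaliana whose transcript is turned into trans-acting siRNAs (tasiRNAs). The deposited tasiRNA table holds 1 row for each locus, position and strand flag, and all rows whose name begins with TAS1a were taken, on both strands. These are 1094 of the 6242 rows of the table, 579 on the forward strand, which has the sequence of the transcript (flag 0), and 515 on the reverse strand (flag 16). At least 1 read was counted in 995 of them, and together they hold 457363 reads. Rows with few reads are common, since 577 rows had fewer than 10 reads over all libraries.

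All libraries came from 7-day-old seedlings of the accession Col-0, the usual laboratory strain, with no mutation or transgene named in the labels. The 3 conditions were 1 h at 37°C (heat stress, HS), 2 h at 22°C following such heat (recovery), and control. From each condition small RNAs were sequenced in 2 assays, from RNA bound to immunoprecipitated ARGONAUTE1 (AGO1-IP) and from total RNA. With 3 biological replicates this gives 6 groups and 18 libraries: AGO1-IP after HS, after recovery and in controls, and total RNA after HS, after recovery and in controls.

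As background, miR173 guides AGO1 to cut the TAS1 and TAS2 transcripts, and the 3′ fragment is copied into double-stranded RNA by RDR6 with the help of SGS3. DCL4 then dices this RNA from the cut end in steps of 21 nt, which sets a register of siRNA duplexes with 2-nt 3′ overhangs. AGO1 favours small RNAs that begin with U, and TAS1 siRNAs are known to act on mRNAs such as those of the HEAT-INDUCED TAS1 TARGET (HTT) genes, named for their rise in heat.

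The TAS1a transcript is 930 nt long and lies on the minus strand, at chr2:11721539-11722468 of the RefSeq TAIR10.1 assembly. The trigger and its site are shown because they fix the register against which each position is described below. The mature miR173-5p lies at chr3:8236161-8236182 on the plus strand.
miR173-5p: ttcgcttgcagagagaaatcac
TAS1a site of miR173: gtgatttttctctacaagcgaa
The site covers nucleotides 367 to 388 of the transcript (chr2:11722081-11722102). With G:U pairs counted as mismatches, it is complementary to all but 2 of the 22 bases of miR173-5p, whereas the next best place in the transcript has 10 mismatches. A cut opposite base 10 leaves a 3′ fragment that starts at nucleotide 379, and cycles of 21 nt are counted from there. The phase this sets was also the phase that held the most TAS1a reads in the 3 control libraries of total RNA.

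The leading positions are shown next, since a few siRNAs carry most of the reads: the 10 rows with most reads over the 18 libraries held 62.9% of all TAS1a reads and the first alone 16.2%. Both assays were pooled for this order, which differed between them: position 569 had 44154 reads in AGO1-IP and 5707 in total RNA, and position 526 had 42906 reads in AGO1-IP and 31098 in total RNA. Each line gives the start of the row in the transcript, its strand and its cycle. The sequence is the 21-nt window of the reference that begins there, written 5′ to 3′ with its 5′ base in capitals (T stands for U). Read lengths are not in the table, so the windows are those a 21-nt read would have.
position 526, forward, cycle 8: Atgatatttgtagtaatggcg
position 569, forward, cycle 10 shifted by 1 nt: Tattctaggatatgcaaaagt
position 463, forward, cycle 5: Tgattggatcttaggaaatta
position 484, forward, cycle 6: Ttctaagtccaacatagcgta
position 451, forward, outside the register: Taacatagcgtttgattggat
position 547, forward, cycle 9: Aaactagaaaaagcattggat
position 588, reverse, cycle 11 shifted by 1 nt: Gtgaacatattcaaggataac
position 400, forward, cycle 2: Tcctaagtccaacatagcgtt
position 419, reverse, cycle 3: Attttctaagatcttatcgaa
position 398, reverse, cycle 2: Cgctatgttggacttaggatg
The windows at 400 and 484 differ at 2 bases, C2T and T21A counted from the 5′ end. Position 526 covers chr2:11721923-11721943, position 569 chr2:11721880-11721900, position 484 chr2:11721965-11721985 and position 400 chr2:11722049-11722069.

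The depth available for TAS1a was 13344 to 57766 reads per library in AGO1-IP (median 36020) and 5150 to 27774 reads in total RNA (median 19365). All TAS reads summed to 95913 to 383351 per AGO1-IP library and 26411 to 118733 per total RNA library. AGO1-IP of recovery replicate 1 stood apart from the other AGO1-IP libraries, and the first replicates of total RNA from those numbered 2 and 3, in ways described with the positions concerned. Values that rest on them are also given without them where this moves a call.

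Nearly all TAS1a reads lay 3′ of the miR173 cut. The share was 99.8 ± 0.08% in AGO1-IP and 99.6 ± 0.19% in total RNA (SD, n = 9 libraries each), and 1118 reads in all lay upstream. This difference of 0.236 percentage points passed an exact permutation test in which the assay labels were exchanged within each condition (two-sided p = 0.00775, adjusted p = 0.0388 over the 25 share comparisons made). By condition, the mean was 99.90% after HS in AGO1-IP against 99.45% in total RNA, and in controls 99.78% against 99.74%, with overlapping libraries. The difference rested on 1 row, position 279 on the reverse strand, which had 0 to 4 reads in each AGO1-IP library, against 5 to 135 reads in each total RNA library. Without this row, an alternative chosen after seeing the data, the upstream share was 0.174 ± 0.076% in AGO1-IP and 0.160 ± 0.052% in total RNA (SD, n = 9 each), and the difference in the share 3′ of the cut was -0.0143 percentage points (exact permutation p = 0.652).

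**Figure D1:**
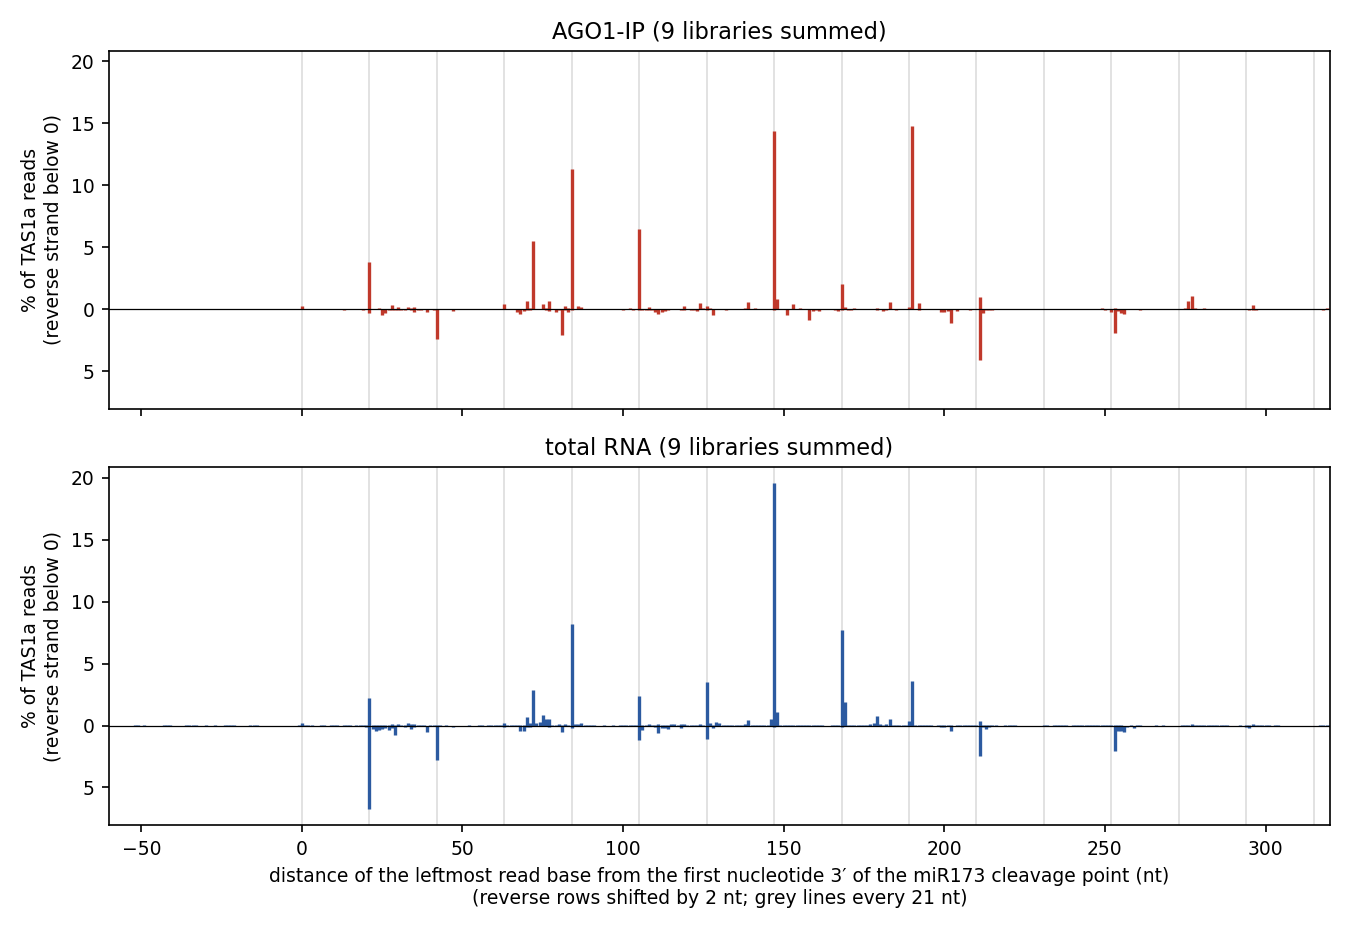
Reads of each TAS1a position as a percentage of all TAS1a reads of an assay (vertical axis, forward strand upwards, reverse strand downwards), against the distance from the first nucleotide 3′ of the miR173 cut in nt, for the 9 AGO1-IP libraries (top) and the 9 total RNA libraries (bottom) summed. Most tall lines stand on or 1 nt beside the grey lines drawn every 21 nt, and the reverse line at cycle 2 is tall in total RNA and small in AGO1-IP.

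The 21-nt register was clear in both assays and differed between them. For reverse rows, the place in it and the 5′ base given throughout assume 21-nt reads. The leftmost base of a reverse row is the 3′ end of the read. Rows exactly in the register held 42.4 ± 1.28% of TAS1a reads in AGO1-IP and 55.5 ± 4.23% in total RNA (SD, n = 9 each), a difference of -13.05 percentage points (exact permutation p = 0.00025, the smallest these arrangements can give, adjusted p = 0.00156). The 2 assays did not overlap in this share. With rows up to 1 nt from the register counted in, the difference shrank to -4.43 percentage points and kept its exact permutation p of 0.00025. Within cycles 1 to 9 the rows exactly in the register held 57.0 to 65.8% of the reads in AGO1-IP and 55.8 to 70.3% in total RNA, so that the libraries of both assays overlapped there. From cycle 10 on the main phase was 1 nt later: rows shifted by 1 nt held 64.3 to 73.2% of these distal reads in AGO1-IP and 49.1 to 56.5% in total RNA. Rows at shift 0 held only 1.43 to 2.15% of the distal reads in AGO1-IP and 3.51 to 5.18% in total RNA.

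The clearest contrast between the assays was the base at the 5′ end of the siRNA. Rows that begin with U held 66.7 ± 7.43% of TAS1a reads in AGO1-IP and 34.8 ± 1.41% in total RNA (SD, n = 9 each). The difference of 31.9 percentage points had an exact permutation p of 0.00025 (adjusted p = 0.00156), and every AGO1-IP library was above every total RNA library. Rows that begin with A had a median share of 22.7% in AGO1-IP and 44.3% in total RNA, and here the assays overlapped. The medians for C were 4.29% in AGO1-IP and 11.3% in total RNA, and those for G 4.75% and 8.65% in the same order, with no overlap between assays for either base. The lowest U share in AGO1-IP, 48.0% (95% Wilson interval 47.3 to 48.7%), belonged to recovery replicate 1, while the other AGO1-IP libraries reached 64.5 to 71.9%. Leaving out any single library kept the difference between 30.6 and 34.1 percentage points.

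**Figure D2:**
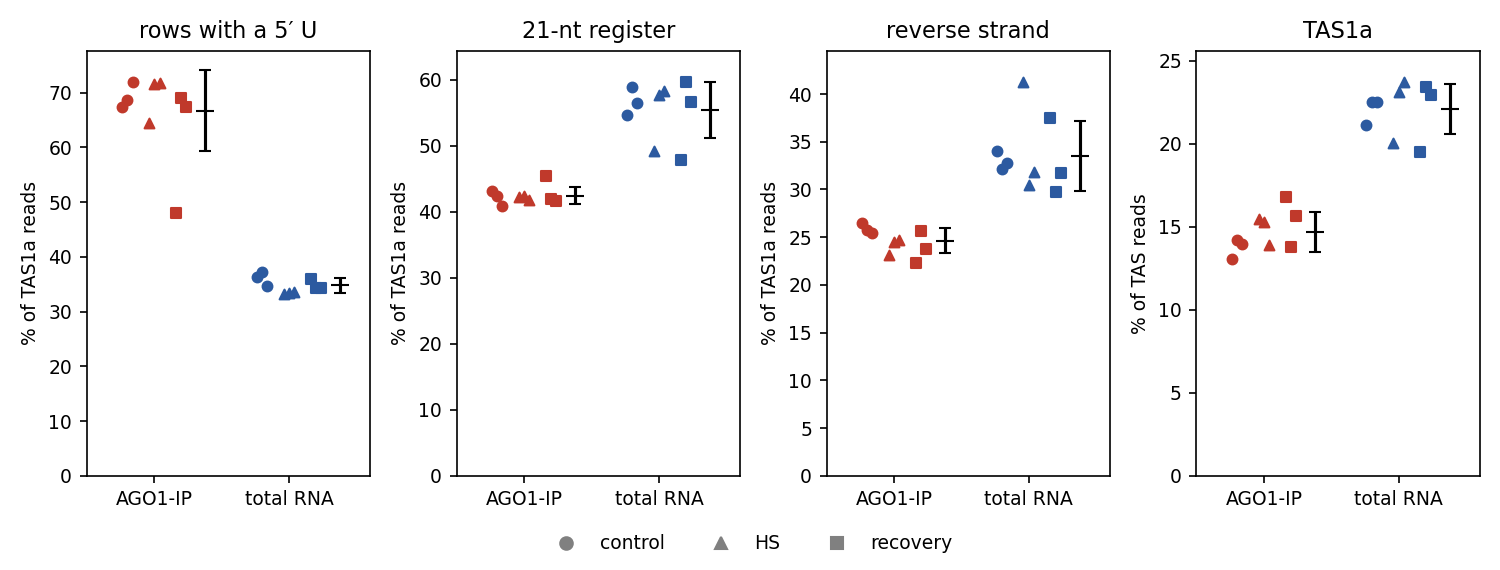
Share of TAS1a reads (vertical axes, %) at rows with a 5′ U, in the 21-nt register and on the reverse strand, and share of all TAS reads that came from TAS1a, for each AGO1-IP and total RNA library (points, shape by condition). Black marks give the mean and SD of the 9 libraries of an assay, and in all 4 panels the libraries of the assays are separate.

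The 10 leading positions followed this contrast in part. Position 569, which begins with U, held 7.75% at the lowest, 15.0% at the median and 18.1% at the highest of TAS1a reads in AGO1-IP, against 1.58%, 3.32% and 4.45% in total RNA. The libraries of the assays did not overlap. Position 451, a U row outside the register, had 4.26%, 5.48% and 7.01% in AGO1-IP, against 1.51%, 2.75% and 4.17% in total RNA, again with no overlap. Position 484 (U) had 3.51%, 7.34% and 7.85% in AGO1-IP, against 1.31%, 2.28% and 3.76% in total RNA. Its AGO1-IP libraries were above those of total RNA but for the lowest, recovery replicate 1. Position 463 (U) reached a median of 10.9% in AGO1-IP and 7.38% in total RNA, and position 400 (U) 4.22% in AGO1-IP and 2.16% in total RNA, both with overlapping libraries.

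Leading rows with another 5′ base were divided: positions 398 and 547 had the smaller share in AGO1-IP, while reverse position 419 (A) had overlapping libraries. Position 398 on the reverse strand (C) fell to 0.187%, 0.289% and 0.384% (lowest, median and highest) in AGO1-IP, against 4.98%, 6.07% and 12.997% in total RNA. Position 547 (A) had 1.503%, 1.73% and 3.51% in AGO1-IP, against 4.60%, 7.23% and 8.77% in total RNA. Just below the leading 10, position 505 of cycle 7 (G) had 0.129%, 0.210% and 0.357% in AGO1-IP, against 2.61%, 3.83% and 5.44% in total RNA. Positions 398, 547 and 505 had no overlapping libraries. The first position of all, 526 (A), did not part in this way: it had 10.99%, 13.9% and 29.2% in AGO1-IP and 10.2%, 18.8% and 22.8% in total RNA, and the value of 29.2% was again AGO1-IP of recovery replicate 1. Position 588 on the reverse strand, which begins with G, went the other way, with 3.27%, 3.87% and 5.11% in AGO1-IP, all above the 1.87%, 2.45% and 2.86% of total RNA.

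**Figure D3:**
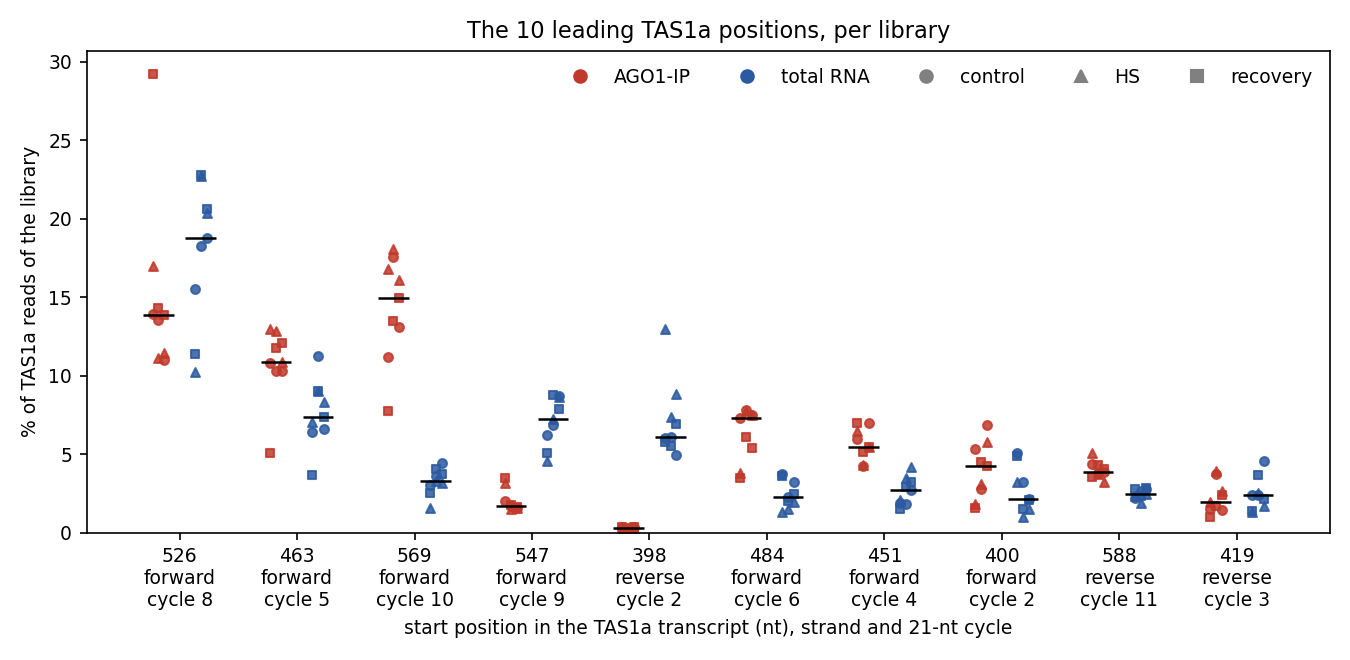
Percentage of the TAS1a reads of a library (vertical axis) at the 10 leading positions (horizontal axis: start in the transcript, strand and cycle), with AGO1-IP libraries left of total RNA libraries at each position, shape by condition and a black line at the median of 9 libraries. Positions 569 and 451 are separate with AGO1-IP above, and positions 547 and 398 are separate with AGO1-IP below.

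Of the 114 TAS1a rows with a mean of at least 20 counts, 22 had a larger share of the locus in every AGO1-IP library than in any total RNA library, and 27 a smaller one. Over the rows of all TAS loci with that mean, 14.8% were above in this way and 25.8% below. Of the 22 TAS1a rows above, 20 begin with U, and of the 27 below, 21 begin with A and 1 with U. The remaining 65 rows overlapped, 37 of them with a 5′ U.

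edgeR's quasi-likelihood test over all tasiRNA rows gave the same picture row by row, on counts scaled by TMM factors. Of the 224 TAS1a rows that passed the filter on low counts, 84 were higher and 85 lower in AGO1-IP than in total RNA at an adjusted p below 0.05, while 35.7% of all 852 rows tested were called higher and 42.1% lower. Among the 91 rows that begin with U, 64 were higher and 2 lower (median log2 fold change 1.48). Among the 75 rows with a 5′ A, 6 were higher and 54 lower (median -1.55), and among the 25 with a 5′ G, 2 were higher and 19 lower (median -3.41). The 33 rows with a 5′ C were divided, 12 higher and 10 lower (median 0.33). The median over all 224 TAS1a rows was -0.11, and over all 852 rows -0.27. By strand, 48 of 117 forward rows were higher and 49 lower, and 36 of 107 reverse rows were higher and 36 lower.

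**Figure D4:**
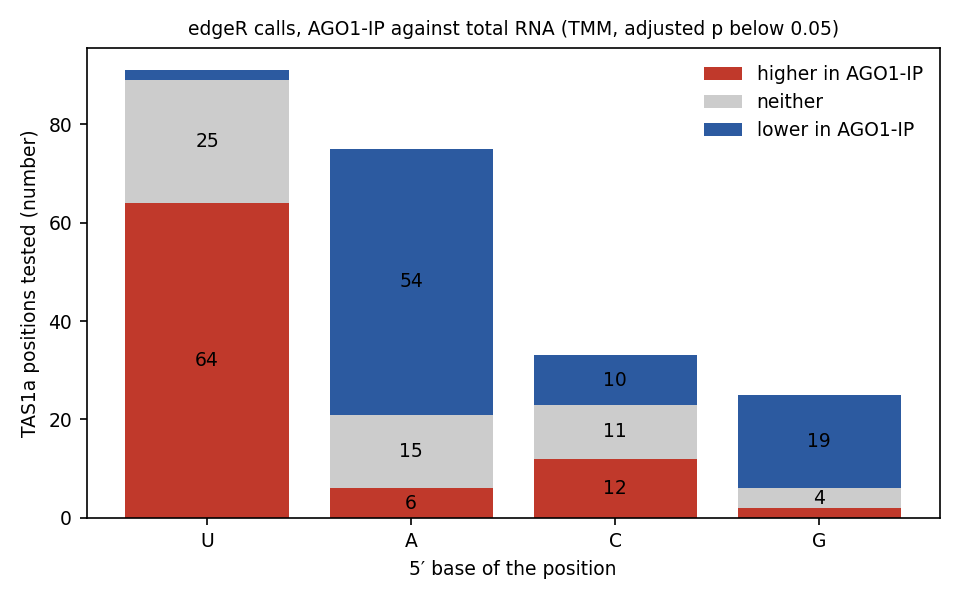
Number of tested TAS1a positions (vertical axis) by their 5′ base (horizontal axis), divided into those called higher, called neither way and called lower in AGO1-IP than in total RNA by edgeR with TMM factors. The higher part is 64 of 91 rows for U and the lower part 54 of 75 rows for A.

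How many TAS1a rows count as higher depended on the scaling. Shares of all tasiRNA rows called are given above for TMM factors only, so the shift between scalings is not read as particular to TAS1a. With no factor beyond the library size the calls became 51 higher and 118 lower, and with miRNA reads included in the library size 21 higher and 178 lower of 240 rows, with the median of all TAS1a rows at -1.04 and -2.26. The share of U rows called higher was 70.3% with TMM factors, 45.1% with no factor and 20.0% with miRNA reads included, against 8.0%, 2.67% and 0.0% of A rows under the same scalings. U rows called lower were 2 of 91 with TMM factors, 17 of 91 with no factor and 43 of 90 with miRNA reads included, so that under the last scaling more U rows were lower than higher (18) and their median was -0.59. The median of A rows was lower still, at -3.39.

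Among the leading rows, position 569 was higher in AGO1-IP by a log2 fold change of 2.44 ± 0.26 (SE, edgeR adjusted p = 8.2e-09) under TMM. It was also called higher with no factor, but not with miRNA reads included in the library size (0.60, edgeR adjusted p = 0.0564). Position 484 followed at 1.75 ± 0.23, position 451 at 1.39 ± 0.25, reverse position 588 at 1.04 ± 0.21, position 400 at 0.98 ± 0.27 and position 463 at 0.81 ± 0.26, all past the threshold with TMM factors and all below 0 when miRNA reads were included in the library size. With no factor, reverse position 588 lost its call (0.10, edgeR adjusted p = 0.622), and positions 400 and 463 were below 0. Position 526 (0.03 ± 0.26, edgeR adjusted p = 0.924) and reverse position 419 (0.19 ± 0.30, edgeR adjusted p = 0.560) did not pass. Position 547 was lower (-1.49 ± 0.26, edgeR adjusted p = 1.7e-05).

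The remaining rows of the first 10 cycles are smaller. Position 379, the first siRNA after the cut, begins with U and stood at 0.70 ± 0.29 (edgeR adjusted p = 0.0312), a call lost with RLE factors and with DESeq2. Position 442 of cycle 4 (U) was higher by 1.43 ± 0.33. The reverse rows 461 (A) and 482 (C), partners of positions 463 and 484, were lower by -1.68 ± 0.27 and -3.62 ± 0.28, and position 505 (G) by -3.62 ± 0.24. Position 568 of cycle 10 (A), the in-register neighbour of 569, had -0.48 ± 0.27 and did not pass (edgeR adjusted p = 0.110).

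The largest rises among called rows with a mean of at least 20 counts were all labelled as U rows away from the register. All but forward position 655 are reverse rows, whose 5′ base and place in the register rest on the assumed read length. Reverse position 538 was higher by a log2 fold change of 5.50 ± 0.59 (SE), with 13 to 69 counts per library in AGO1-IP and 0 to 3 in total RNA. Reverse positions 536, 528 and 535 followed at 3.99 ± 0.47, 3.95 ± 0.35 and 3.68 ± 0.34, and forward position 655 at 3.55 ± 0.40. The largest falls were those of reverse positions 399 (-7.30 ± 0.47), 279 (-6.90 ± 0.74), 503 (-4.51 ± 0.35), 398 (-4.24 ± 0.23) and 400 (-4.00 ± 0.28). None of these begins with U at the assumed read length, and their actual 5′ bases were not tested. A row can reach the mean of 20 counts through 1 assay alone, so these folds are given as a description. Positions 398, 399 and 400 are neighbours on the reverse side of cycle 2. Reverse position 399 had 0 to 3 counts per AGO1-IP library, against 10 to 97 in total RNA, and position 279 had no count in 7 of the 9 AGO1-IP libraries and 4 in recovery replicate 1. The fold changes of both, and of position 538, lean on the small counts added by the fit, and that of position 279 ran between -8.10 and -6.60 with single libraries left out.

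Both strands of a duplex were then compared, since they come from the same piece of double-stranded RNA. A duplex pairs a forward row with the reverse row whose leftmost base lies 2 nt upstream, and 12 such pairs had at least 20 reads in every library. These pairs were chosen after the data were seen, and p-values are adjusted over the 12. In cycle 2 the forward strand (position 400, U) made up 80.9% at the lowest, 93.9% at the median and 95.9% at the highest of both strands (position 398, C) in AGO1-IP, against 12.03%, 23.1% and 45.7% in total RNA. The strand that was in the minority in all 9 total RNA libraries was thus in the majority in all 9 AGO1-IP libraries (difference of means 64.2 percentage points, exact permutation p = 0.00025, adjusted p = 0.001).

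Cycle 6 showed a shift of the same kind. There the forward strand (position 484, U, opposite a 5′ C) had a mean of 98.4 ± 1.65% in AGO1-IP and 64.4 ± 15.0% in total RNA (SD, n = 9 each, adjusted p = 0.001 by the exact permutation test). In cycle 5 (position 463, U, opposite A) the medians were 99.5% in AGO1-IP and 97.7% in total RNA (adjusted p = 0.001, exact permutation), with every AGO1-IP library above. In cycle 7, with G opposite A, they were 84.7% and 76.2% in the same order (exact permutation, adjusted p = 0.0535), and the libraries overlapped. Cycle 9 shifted by 1 nt, with A opposite U, had the lower forward share in AGO1-IP, 90.2% against 98.0% in total RNA at the median (exact permutation, adjusted p = 0.0495), on as few as 32 reads in a library, and the call was lost with 11 of the 18 libraries left out singly. The other 7 pairs did not pass. They include strongly one-sided duplexes: in cycle 3 the forward strand held at most 1.12% in AGO1-IP and 1.58% in total RNA, and in cycle 8 at least 99.2% in AGO1-IP and 98.7% in total RNA.

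**Figure D5:**
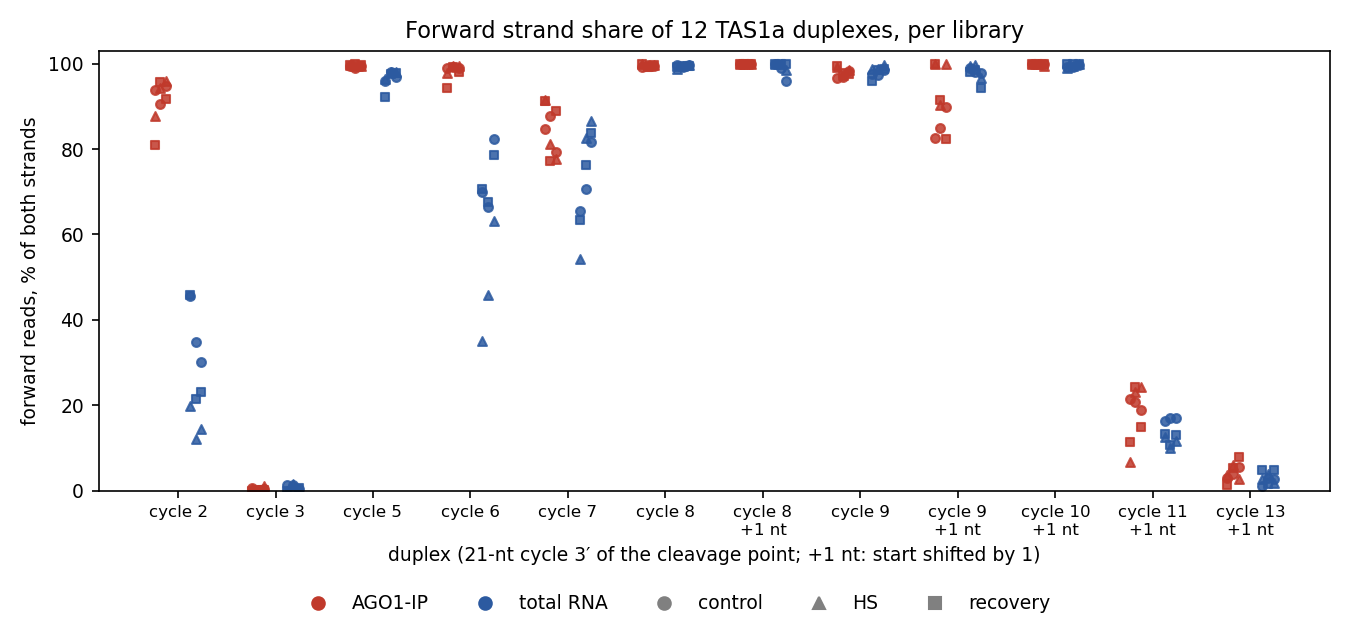
Forward reads as a percentage of both strands (vertical axis) for the 12 duplexes with at least 20 reads in every library (horizontal axis, by 21-nt cycle), per library, AGO1-IP left of total RNA, shape by condition. In cycle 2 AGO1-IP lies between 80.9% and 95.9% and total RNA between 12.03% and 45.7%, and in cycles 2 and 6 the HS libraries of total RNA are the lowest of their assay.

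Position 484 and its reverse partner are not unique to TAS1a. The 21-nt window occurs 3 times in the genome, once each in TAS1a, TAS1b and TAS1c. The table lists 19289 reads for the TAS1a copy in AGO1-IP, 18989 for TAS1b and 24168 for TAS1c, and 3764, 3541 and 4740 in total RNA, so the counts at any single copy are uncertain. In all, 62 TAS1a rows have a window found in another TAS locus, and they hold 6.0% of TAS1a reads.

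The windows of the 20 rows with most reads were compared with 32457 annotated genes, to see which transcripts carry complementary sites. A site was any ungapped stretch scoring at most 3, with 1 for a mismatch and 0.5 for a G:U pair. Outside the TAS loci, position 484 had sites in 5 genes, and these were HTT1 to HTT5. Position 400 had sites in 6 genes, among them HTT2 and HTT3. None of the other 18 windows matched an HTT gene, and each of the 20 windows had sites in 0 to 12 genes. The sites of position 484 are shown as read 5′ to 3′ in the mRNA, with mismatched and G:U paired bases in capitals.
HTT1 (AT4G29770), chr4:14577245-14577265, coding sequence: CacgAtatgttggacttagaG
HTT2 (AT5G18040), chr5:5973755-5973775: CacgctatgttggacttagGG
HTT3 (AT5G18065), chr5:5980156-5980176: CacgctatgttggacttagGG
HTT4 (AT4G29760), chr4:14574925-14574945, coding sequence: CacActatgttggacttagaG
HTT5 (AT1G51670), chr1:19158315-19158335, coding sequence: CGcgctaCgttggacttagaG
The scores were 2.5 for HTT1 and HTT4, 2.0 for HTT2 and HTT3 and 3.0 for HTT5. Position 400 matched the same stretch of HTT2 and HTT3 with a score of 1.5. Each region was read from 1 transcript of its gene, and in those of HTT2 and HTT3 this stretch lies 3′ of the coding sequence. Where the sites lie in other transcripts of these genes was not examined. A match of this kind is a description of the sequences, and mRNA levels were not measured in these libraries.

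Heat and recovery were compared with control within each assay. At the level of the whole locus no change passed the test. On the TMM scale of miRNA and TAS reads, TAS1a stood at 11102, 20665 and 19915 CPM after HS in total RNA, against 9720, 12548 and 15618 CPM in controls (log2 fold change 0.33 ± 0.40, edgeR adjusted p = 0.700). After recovery total RNA had 7574, 21983 and 15113 CPM, 0.19 ± 0.40 relative to control on the log2 scale. In AGO1-IP, HS libraries had 16361, 24228 and 11896 CPM, against 14622, 19122 and 10498 CPM in controls (0.27 ± 0.36). Recovery libraries of AGO1-IP had 8205, 15261 and 13264 CPM (-0.13 ± 0.36 relative to control). HS libraries thus overlapped with their controls in both assays.

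Single positions gave no call either in fits without a replicate block. With the replicate number as a block, 4 TAS1a rows were called higher and 5 lower after HS in total RNA. The share of all tasiRNA rows called in that fit is not given here, so this count is not read as particular to TAS1a. The counts that follow are from fits without the block. After HS, 0 of the 166 TAS1a rows tested in total RNA passed an adjusted p of 0.05 in edgeR, as did 0% of all 646 rows in either direction, while 18 TAS1a rows had an unadjusted p below 0.05 (DESeq2 gave 0 calls and 12 such rows). After recovery in total RNA it was 0 of 166 with 1 such row (DESeq2: 0 and 0), and for recovery against HS 0 of 166 with 3 (DESeq2: 0 and 2), both beside 0% of all rows. In AGO1-IP, 0 of 207 rows were called after HS, with 5 at an unadjusted p below 0.05 (DESeq2: 0 and 4), while 0% of all 749 rows were called higher and 0.134% lower. After recovery it was 0 of 207 with 6 (DESeq2: 0 and 5), and for recovery against HS 0 of 207 with 3 (DESeq2: 0 and 3), beside 0% of all rows. Nor did the ratio of AGO1-IP to total RNA change with treatment at any of 224 rows, with 4 at an unadjusted p below 0.05 for HS and 4 for recovery (DESeq2: 0 calls, 4 and 2 such rows, 0% of all 852 rows in edgeR). These counts do not show that levels were equal. The shares of all rows with an unadjusted p below 0.05 are not given here, so the unadjusted counts are not read as particular to TAS1a.

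The 2 rows with the smallest p in total RNA after HS were positions 558 on the forward strand (log2 fold change -1.09 ± 0.28) and 545 on the reverse strand (-1.35 ± 0.45), both with an edgeR adjusted p of 0.489. With the replicate number as a block, position 558 had an edgeR adjusted p of 0.00931. After recovery they were reverse positions 444 and 456, at -1.34 ± 0.52 and -1.14 ± 0.53 (edgeR adjusted p = 0.999 for both). In AGO1-IP after HS they were positions 530 and 357. Position 357, upstream of the cut, had 0, 0 and 1 counts in HS libraries, against 13, 16 and 7 in controls, so that all HS libraries were below (edgeR adjusted p = 0.238). After recovery in AGO1-IP they were reverse positions 461 (-1.51 ± 0.57) and 582, on 98 reads in all libraries together (edgeR adjusted p = 0.979). The ratio of AGO1-IP to total RNA moved most by p with HS at reverse position 398 (-1.39 ± 0.49) and position 453 (-1.84 ± 0.66), at an edgeR adjusted p of 0.963. With recovery it was positions 529 (3.68 ± 1.46) and reverse 461 (-1.58 ± 0.65), at an edgeR adjusted p of 1.00. At position 529, AGO1-IP of recovery replicate 1 had 92 counts, against 6 and 4 in the other recovery libraries of AGO1-IP, and without it the value was 0.42.

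The rows of cycles 2 and 6 with sites in HTT genes are given for HS, first in AGO1-IP. There position 484 had 5886, 11800 and 10437 CPM of TAS reads after HS, against 9584, 11119 and 10447 CPM in controls, with overlap (edgeR adjusted p = 0.996). Position 400 had 2808, 4745 and 8007 CPM after HS in AGO1-IP, against 6931, 3965 and 9566 CPM in controls, also with overlap (edgeR adjusted p = 0.996). These rows thus did not separate HS from control in the AGO1-IP libraries. In total RNA, position 484 had 2625, 3458 and 4663 CPM of TAS reads after HS, against 7957, 5125 and 7286 CPM in controls. All 3 HS libraries were below all 3 controls (log2 fold change -0.94 ± 0.33), but the edgeR adjusted p was 0.489. Position 400 had 6444, 2325 and 3549 CPM after HS, against 10734, 7298 and 4863 CPM in controls, with overlap (-0.96 ± 0.43, edgeR adjusted p = 0.501). Its partner, reverse position 398, had 26045, 17002 and 20985 CPM after HS, against 12811, 13646 and 11220 CPM in controls, all HS libraries being above (0.71 ± 0.30, edgeR adjusted p = 0.489).

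Expressed as strand shares, the forward strand of cycle 2 was 19.8%, 12.03% and 14.5% of the duplex after HS in total RNA, against 45.6%, 34.8% and 30.2% in controls. The difference was -21.4 percentage points, and exact permutation gave p = 0.1, the smallest possible with 3 against 3 libraries (adjusted p = 0.48 over the 48 comparisons of duplexes with treatment). Cycle 6 had 35.1%, 45.8% and 63.2% after HS, against 70.0%, 66.4% and 82.3% in controls (difference -24.8 percentage points, exact permutation p = 0.1, adjusted p = 0.48). After recovery the values were 45.7%, 21.6% and 23.1% in cycle 2 and 70.6%, 67.7% and 78.5% in cycle 6, and both overlapped with the controls. The widest 95% Wilson interval of a single library spans 8.40 points in cycle 2 and 11.7 points in cycle 6, less than the HS differences of means. In cycle 6, however, the highest HS library (63.2%) and the lowest control (66.4%) lay closer together than that span. In AGO1-IP the HS libraries had 87.8%, 94.3% and 95.9% in cycle 2, against 93.9%, 90.6% and 94.7% in controls, with no separation.

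The shares of the locus also moved little with treatment. In total RNA, U rows held 33.4 ± 0.167% of TAS1a reads after HS and 36.1 ± 1.26% in controls (SD, n = 3 each, exact permutation p = 0.1, the smallest possible, adjusted p = 0.278), every HS library being below every control. In AGO1-IP they held 69.3 ± 4.15% after HS and 61.4 ± 11.7% after recovery, against 69.3 ± 2.30% in controls. After recovery replicate 1 had 48.0%, and replicates 2 and 3 had 68.9% and 67.3%. The reverse strand held 23.2%, 24.5% and 24.8% in HS libraries of AGO1-IP, all below the 26.4%, 25.7% and 25.4% of controls (difference -1.72 percentage points, exact permutation p = 0.1, adjusted p = 0.278).

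The share of reads 3′ of the cut differed from control in opposite directions after HS in the 2 assays, in total RNA only with reverse position 279 counted. In AGO1-IP it was 99.92%, 99.94% and 99.85% after HS, all above the 99.80%, 99.74% and 99.82% of controls, and in total RNA 99.52%, 99.55% and 99.27% after HS, all below the 99.83%, 99.73% and 99.65% of controls. Each of these comparisons had an exact permutation p of 0.1 (adjusted p = 0.278). The difference between the 2 changes was 0.412 percentage points (exact permutation p = 0.005, adjusted p = 0.05 over the 10 such tests, at the threshold and not below it). This test was added after the values were seen. Without position 279, the share in total RNA was 99.79%, 99.79% and 99.85% after HS, against 99.89%, 99.81% and 99.87% in controls, with overlap (exact permutation p = 0.2), while the AGO1-IP libraries still did not overlap. The difference between the changes was then 0.167 percentage points (unadjusted exact permutation p = 0.015).

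The first replicates of total RNA differed from the others in where reads of 2 leading A rows began. At position 548, 1 nt beyond the in-register position 547, reads made up 61.8% of both rows in HS replicate 1, 47.8% in recovery replicate 1 and 31.8% in control replicate 1. In the other 6 total RNA libraries this was 10.6 to 27.3%, and in AGO1-IP 7.56 to 13.2%. At position 527 beside 526 the same 3 libraries had 28.9%, 20.4% and 8.87%, against 1.84 to 7.72% in the other total RNA libraries. These 2 shifted rows were picked after their values were seen. Within its condition each of these 3 libraries also had the highest reverse share and the lowest share in the register. They were the shallowest total RNA libraries too, with 9062 (control), 6717 (HS) and 5150 (recovery) TAS1a reads, against at least 19214 in the others. Their part in the results was not tested.

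The reverse strand held 24.7 ± 1.34% of TAS1a reads in AGO1-IP and 33.5 ± 3.67% in total RNA (SD, n = 9 each), a difference of -8.85 percentage points (exact permutation p = 0.00025, adjusted p = 0.00156) with no overlap. Compared with the most similar loci in the same libraries, TAS1a was the most forward-biased in AGO1-IP: the reverse share was 24.7 ± 1.34% for TAS1a, 36.6 ± 5.94% for TAS1b, 40.3% for TAS1c and 72.1% for TAS2 on average. TAS1a was the lower in 9 of 9 AGO1-IP libraries against each (exact sign-flip permutation, adjusted p = 0.00469 over 6 comparisons). In total RNA it was below TAS1c (33.5% and 45.5%) and TAS2 (40.2%) at the same adjusted p, but did not differ from TAS1b beyond the spread (31.3 ± 4.64%, exact permutation, adjusted p = 0.242).

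TAS1a also made up less of the TAS reads in AGO1-IP, 14.7 ± 1.18% against 22.1 ± 1.5% in total RNA (SD, n = 9 each, difference -7.41 percentage points, exact permutation p = 0.00025, adjusted p = 0.00156). TAS1b also had the smaller share in AGO1-IP, with 2.62 to 3.09% against 5.41 to 10.99% in total RNA, and TAS1c had 29.6 to 40.9% against 39.9 to 44.9%, with overlap. TAS2 had the opposite direction, with 32.8 to 46.6% of TAS reads in AGO1-IP and 20.7 to 23.7% in total RNA. The edgeR comparison of the summed TAS1a locus with all miRNAs and TAS loci gave a log2 fold change of -0.01 ± 0.23 between AGO1-IP and total RNA with TMM factors (adjusted p = 0.958). That value rests on the scaling, as it was -0.69 and past the threshold with DESeq2's size factors, under which the median of all 275 features tested was also -0.69. On the TMM scale TAS1a had 8205 to 24228 CPM in AGO1-IP (median 14622) and 7574 to 21983 CPM in total RNA (median 15113).

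Among other members of the pathway, a list of 11 miRNAs and TAS loci, 10 passed the filter on low counts, and miR828, the trigger of TAS4, did not. With TMM factors 5 of the 10 were higher in AGO1-IP and 4 lower, beside 41.5% of all 275 features higher and 38.2% lower. The trigger of TAS1a, miR173-5p, had 2857 to 43878 CPM in AGO1-IP and 1496 to 2633 CPM in total RNA, with no overlap (log2 fold change 3.19 ± 0.33, edgeR adjusted p = 1.1e-08). TAS2 was higher as well (1.58 ± 0.23), and TAS1b lower (-0.67 ± 0.20, edgeR adjusted p = 0.00415), both with overlapping libraries. The miR390 copies, which trigger TAS3 through AGO7, were lower (miR390a-5p -0.91 ± 0.28), also with overlap. For miR390a-5p the range was 1273 to 1745 CPM in AGO1-IP and 1067 to 5965 CPM in total RNA. In replicate 3 of each condition its AGO1-IP value was above that of total RNA. None of the 10 was called after HS or recovery in either assay, where 0 to 1.8% of all features were called in a direction.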

How the data were processed

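The deposited tables hold raw counts of reads, which the authors made by trimming adapters with cutadapt 2.9 and aligning with Bowtie2 (version not given in the sources used here) to TAIR10 sequences: 1 row for each of 422 miRNAs, and 1 row for each position and strand flag of 7 TAS loci. Libraries were made from 100 ng of RNA with 15 PCR cycles per the labels. Every sample column was used (0 columns left out). Library totals are sums of miRNA or TAS reads and not the whole sequencing depth. Labels call the replicates biological, and p-values measure the spread between them.

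Row positions were taken as the leftmost base on the transcript, and windows and coordinates were taken from RefSeq TAIR10.1. Counts of all tasiRNA rows, and of miRNAs with summed TAS loci, were tested with edgeR 4.0.16 in R 4.3.3 (TMM factors, filterByExpr, quasi-likelihood F-test, Benjamini-Hochberg adjustment over all rows, threshold 0.05). Treatments were compared in the 9 libraries of an assay, and the assays in all 18. DESeq2 1.42.0 with its size factors, RLE factors, no factor, no filter, a replicate block, miRNA reads in the library size, rows found in 1 locus only, and leaving out each library were alternatives. Shares were compared with exact permutation tests over libraries in Python 3.11.15 with scipy 1.17.1, with assay labels exchanged within conditions. Duplex comparisons, the test of share changes between assays and leaving out the leading upstream row were added after seeing the data. The tests were checked on simulated data. Wilson intervals cover counting error only, since PCR copies were not told apart by molecular identifiers.

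Named rows were the 10 with the highest mean CPM of TAS reads over the 6 groups, rows in the register up to cycle 10 with a mean of at least 20 counts, per comparison the 5 largest rises and 5 largest falls among called rows with that mean, and where none was called the 2 rows with the smallest p. Members and lists were chosen with earlier results of these data known.

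The replicate numbers come from the labels, which do not say that they mark a shared batch. The paper states that total RNA and AGO1-IP libraries were made from the same biological replicates. Deviations of same-numbered libraries correlated at over 0.1 in each of the 3 pairs for recovery against control (0.50, 0.16 and 0.48) and recovery against HS in total RNA (0.48, 0.19 and 0.60) and for recovery against HS in AGO1-IP (0.49, 0.31 and 0.22), but not for the other comparisons. The main edgeR fits, and the permutation tests between assays or treatments, did not use the replicate number. It entered only as a block among the alternatives.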

Additional observations from a re-analysis of the deposited data

Results flagged for a closer look

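The share of TAS1a reads 3′ of the miR173 cut was higher after HS than in all controls in every AGO1-IP library, and lower than in all controls in every total RNA library, the second only with reverse position 279 counted. The difference between the changes was 0.412 percentage points (exact permutation p = 0.005, adjusted p = 0.05, between 0.323 and 0.463 with single libraries left out). Without position 279, which lies upstream of the cut, the total RNA libraries overlapped and the difference between the changes was 0.167 percentage points (unadjusted exact permutation p = 0.015).

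Reverse position 398 showed such opposite directions in its CPM of TAS reads. In AGO1-IP it had 389, 285 and 344 CPM after HS, against 449, 409 and 537 CPM in controls, while in total RNA all HS libraries were above their controls. The test of the difference itself did not pass (log2 difference -1.39, edgeR adjusted p = 0.963).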

How the results depend on the processing

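The comparison of AGO1-IP with total RNA by read counts depended on the scaling. The differences between assays in reverse strand, register, 5′ U and TAS1a share of TAS reads kept their direction and stayed past the threshold under every alternative run (unadjusted exact permutation p of at most 0.00391). The count of TAS1a rows called higher in AGO1-IP was 51 with no factor and 21 with miRNA reads in the library size, against 84 with TMM, and the count called lower was 128 with no filter and 178 with miRNA reads included, against 85. The locus-level log2 fold change between assays was -0.69 with RLE factors, -0.69 with DESeq2 and -1.47 with no factor, all past the threshold, against -0.01 with TMM. The cause was not tested, and the shares of all tasiRNA rows called under these alternatives are not given here.

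Single rows changed sign between assays as follows, in log2 fold change. TAS1a_526_0 had -0.13 with RLE factors, -0.13 with DESeq2, -0.87 with no factor, -0.031 with no filter, -1.82 with miRNA reads in the library size and -0.0083 over rows found in 1 locus only. With no factor, TAS1a_463_0 had -0.12, TAS1a_400_0 -0.0059, TAS1a_419_16 -0.74 and TAS1a_379_0 -0.21. With miRNA reads in the library size, TAS1a_463_0 had -1.03, TAS1a_484_0 -0.041, TAS1a_451_0 -0.46, TAS1a_400_0 -0.77, TAS1a_588_16 -0.78, TAS1a_419_16 -1.65, TAS1a_379_0 -1.13 and TAS1a_442_0 -0.38. Leaving out single libraries gave -0.22 to 0.12 for TAS1a_526_0 and -0.046 to 0.36 for TAS1a_419_16.

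Some treatment effects on the locus changed sign, but those of HS against control in either assay kept theirs with single libraries left out. For recovery against control in AGO1-IP the log2 fold change was 0.075 with RLE factors and with DESeq2, 0.076 with no filter and 0.11 with only the groups compared, and the change of AGO1-IP against total RNA with HS was 0.18 with RLE factors and with DESeq2. Leaving out single libraries gave -0.17 to 0.53 for recovery against control and -0.51 to 0.19 for recovery against HS in total RNA, and -0.21 to 0.21 for recovery against control in AGO1-IP. It gave -0.16 to 0.11 between assays, -0.53 to 0.38 for the change with HS and -0.76 to 0.14 for the change with recovery.

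Without reverse position 279, an alternative chosen after seeing the data, the share of reads 3′ of the site differed by -0.0143 percentage points between AGO1-IP and total RNA, against 0.236 with it, and by 0.00454 between recovery and control in AGO1-IP.

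Some treatment differences in shares also changed sign, given here in percentage points, while that of 5′ U after HS in total RNA stayed between -3.36 and -2.11 with single libraries left out. Without position 526, the reverse share after recovery in AGO1-IP differed from control by 0.0347, the register share by -0.309 after HS and -4.46 after recovery, and the 5′ U share after HS by 0.235. Over rows in 1 locus only, the reverse share after recovery in total RNA differed by -0.00333 and the 5′ U share after HS in AGO1-IP by 0.379, and counting rows within 1 nt of the register the recovery difference in AGO1-IP was -0.935. Leaving out single libraries gave, in total RNA, -1.83 to 3.56 after HS and -2.22 to 1.67 after recovery for the reverse share, -3.25 to 1.28 and -4.48 to 1.43 for the register, and -0.487 to 1.34 and -0.84 to 1.11 for the TAS1a share. In AGO1-IP it gave -0.603 to 0.515 and -0.288 to 1.59 for the register, -0.042 to 0.0449 after recovery for reads 3′ of the site, and -1.27 to 2.33 after HS for 5′ U.

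With the replicate number as a block, 4 TAS1a rows were called higher and 5 lower after HS in total RNA, against 0 without it. The share of all tasiRNA rows called with the block is not given here. Whether the numbers pair these libraries is not settled: the labels do not say so, and their deviations correlated at 0.42, -0.09 and 0.52. The locus difference between assays was 0.013 with the block. No call changed for recovery against control or against HS in total RNA, or for recovery against HS in AGO1-IP. Rows with few reads limit these data: 577 of the 1094 rows had fewer than 10 reads, and a comparison of 3 with 3 libraries cannot fall below an exact p of 0.1.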
